A study of Mus musculus with 2 samples.

Results

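The small leucine-rich proteoglycans (SLRPs) are secreted matrix proteins with a short core of leucine-rich repeats, and 10 of their genes were followed here among 22072 gene symbols: Aspn, Ogn, Omd, Fmod, Podn, Dcn, Lum, Bgn, Prelp and Kera. They were found by symbol in the deposited transcript tables, and the FPKM of all transcript rows of a symbol was summed. The family was chosen with the ratios between the 2 genotypes already known, so the values below describe it and test nothing. RNA came from tongues dissected from mouse embryos of mixed background at embryonic day 12, and was sequenced as 1 mutant library (Osr1f/-; Wnt1cre) and 1 control library (Osr1f/+). The mutant carried a floxed and a null allele of Osr1 and also Wnt1cre, a transgene active in neural crest cells, from which most connective tissue of the tongue derives. The control carried a floxed and a wild-type allele and, by its label, no Wnt1cre, and all cells of the mutant carried the null allele. RNA was extracted from pools, described as 3 pairs of control and mutant samples. With 1 library per genotype there was no replicate error and no test between genotypes, so every ratio compares 2 libraries.

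SLRP core proteins bind collagen fibrils and regulate their diameter and spacing, and several of them also bind growth factors such as TGF-beta. Biglycan and decorin carry chondroitin or dermatan sulfate chains, whereas lumican, fibromodulin and keratocan carry keratan sulfate or unsulfated polylactosamine. Asporin, a close relative of decorin, carries a stretch of aspartate in place of such a chain. Several of these proteins are abundant in tendon, bone and cartilage.

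The family did not differ as a block. Aspn, Fmod, Prelp, Ogn and Podn were higher in the mutant library, with FPKM ratios of 2.25, 1.87, 1.72, 1.69 and 1.56. Dcn and Lum were lower, with ratios of 0.680 and 0.830. Bgn, the most abundant of the 10 genes in both libraries, had a ratio of 0.961, and Omd and Kera rested on about 20 to 23 reads per library. The sum over the 10 genes was 111 FPKM in the mutant library and 103 FPKM in the control library, a ratio of 1.07.

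The promoters of 4 members are shown because Aspn, Omd and Ogn are neighbours on chromosome 13 with unlike ratios. That of Omd rests on about 20 reads per library, and its counting interval overlaps that of Ogn. Fmod, on another chromosome, had a ratio like that of Aspn. Each sequence is the 250 bases before the gene start in RefSeq on GRCm38.p6, read 5′ to 3′ on the plus strand, which is the strand of all 4 genes. Capitals mark E-boxes (CANNTG), the element that basic helix-loop-helix factors bind. The regions are chr13:49544193-49544442 for Aspn, chr13:49607765-49608014 for Ogn, chr13:49582212-49582461 for Omd and chr1:134037004-134037253 for Fmod.
Aspn: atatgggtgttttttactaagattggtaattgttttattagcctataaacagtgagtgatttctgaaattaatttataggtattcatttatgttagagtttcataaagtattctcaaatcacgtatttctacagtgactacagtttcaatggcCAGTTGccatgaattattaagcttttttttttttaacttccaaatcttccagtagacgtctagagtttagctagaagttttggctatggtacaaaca
Ogn: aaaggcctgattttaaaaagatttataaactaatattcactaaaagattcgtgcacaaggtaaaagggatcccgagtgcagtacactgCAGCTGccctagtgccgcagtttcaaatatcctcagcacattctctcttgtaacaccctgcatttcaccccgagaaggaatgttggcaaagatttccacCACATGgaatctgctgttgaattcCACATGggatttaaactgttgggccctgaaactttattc
Omd: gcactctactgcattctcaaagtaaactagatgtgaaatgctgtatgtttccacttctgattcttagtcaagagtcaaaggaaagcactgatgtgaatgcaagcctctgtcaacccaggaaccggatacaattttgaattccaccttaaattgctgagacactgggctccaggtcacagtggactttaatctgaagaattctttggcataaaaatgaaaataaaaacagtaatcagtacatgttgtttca
Fmod: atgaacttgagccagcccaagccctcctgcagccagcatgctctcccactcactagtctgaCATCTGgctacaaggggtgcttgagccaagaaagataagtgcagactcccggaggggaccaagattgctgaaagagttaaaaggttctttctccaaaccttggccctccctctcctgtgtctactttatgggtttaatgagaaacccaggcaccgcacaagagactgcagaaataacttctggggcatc
The pattern CANNTG matches at the same place on both strands, and each place was counted once. An E-box was present once in Aspn, 3 times in Ogn, once in Fmod and not in Omd. It was present in 66.2% of the 32851 promoter entries of that length. The letters TATAAA, searched on both strands, were found at 2 places in Aspn, and in Ogn as 2 overlapping matches on opposite strands. None was found in Omd or Fmod, and 12.4% of all entries hold that motif. The letters AACAAT, part of the element that SOX factors bind, were found once in Aspn, on the minus strand, and in 9.42% of all entries. No match overlapped one of another motif. The letters ACAGTAGC, the element of odd-skipped zinc finger factors, were not in any of the 4 windows and are in 0.749% of all entries. Entries were at hand for 8 of the 10 members, and Dcn and Lum had none. Among the members not shown, Bgn (ratio 0.961) had 1 E-box, and Prelp (ratio 1.72) and Kera (ratio 0.895) had 0. Podn (ratio 1.56) had 3 in one entry and 1 in another. A link between E-boxes and ratios was not tested. The Aspn window had 30.0% G and C, that of Ogn 42.0%, that of Omd 38.4% and that of Fmod 51.2%, against a median of 52.4% over all entries.

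The labels were checked by the targeted gene. Osr1 had 18.4 FPKM in the mutant library and 56.8 FPKM in the control library, a ratio of 0.325. The depth, estimated from the deposited coverage, was about 23200000 reads in the mutant and 19000000 reads in the control library. A transcript of 1 kb with 3 reads, the floor used here, would have 0.129 FPKM in the mutant and 0.158 FPKM in the control library. A gene was counted as measured at 1 FPKM or more in either library with the status OK on all of its rows. Of 12383 measured genes, 5.71% were at least 25% higher in the mutant library and 4.13% at least 20% lower, equal to a ratio of 0.8 or less. Among measured genes of 1 to 5 FPKM in the more abundant library these shares were 14.6% and 11.0%, and among those of 5 to 20 FPKM they were 2.88% and 2.00%. From 20 FPKM up they were 1.41% and 0.792%.

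Of the 10 members 7 were measured, namely Aspn, Ogn, Fmod, Podn, Dcn, Lum and Bgn. Podn passed the filter only through the mutant library, so it could only count as higher. It stood just inside, at 1.32 FPKM in the mutant library, and Prelp just outside, at 0.955 FPKM. At least 25% higher were 4 of the 7 measured members, Aspn, Ogn, Fmod and Podn, beside 5.71% of all measured genes, and 1 was at least 20% lower, Dcn, beside 4.13%. At 1.5-fold the count of higher genes was again 4, beside 1.90% of all measured genes, and that of lower genes was 0, beside 1.36%. Among the 5 members with at least 5 FPKM, 2 were at least 25% higher (Aspn and Ogn) and 1 at least 20% lower (Dcn), beside 2.32% and 1.54% of all 8970 genes at that level. Among the 5 measured members whose locus overlaps no other model, 2 were at least 25% higher (Fmod and Podn) and 1 at least 20% lower (Dcn), beside 5.28% and 3.78% of all 10369 such genes. The family was chosen on this contrast, so these shares are given as a description. The median log2 ratio of the 7 measured members was 0.64, and that of all 12383 measured genes was 0.0037. Over all 10 members it was 0.29, and over the 5 with at least 5 FPKM it was −0.057, because Bgn then stands in the middle.

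The order of levels differed below Bgn. FPKM is scaled by transcript length, but amplification can shift levels between genes, so the order is that of the deposited values. Intervals of single values below are exact Poisson 95% intervals of the counting error alone. Bgn was first in both libraries, with 46.1 FPKM in the mutant and 48.0 FPKM in the control library. In the mutant library Ogn followed at 23.4 FPKM (22.2 to 24.7), then Lum at 12.6 (11.6 to 13.6), Dcn at 11.7 (10.7 to 12.8) and Aspn at 9.65 (8.85 to 10.5). In the control library Dcn followed at 17.2 FPKM (15.9 to 18.6), then Lum at 15.2 (14.0 to 16.4), Ogn at 13.9 (12.8 to 14.96) and Aspn at 4.30 (3.70 to 4.94). The counting intervals of Lum and Dcn overlapped in the mutant library, and so did those of Dcn and Lum and those of Lum and Ogn in the control library. Fmod stood below Aspn in both libraries, with no overlap with its neighbours in rank. Podn came next at 1.32 FPKM (1.07 to 1.61) in the mutant and 0.845 FPKM (0.632 to 1.12) in the control library. Its interval overlapped that of Prelp in the mutant library and those of Omd, Prelp and Kera in the control library. Prelp, Kera and Omd lay under 1 FPKM in both libraries.

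**Figure D1:**
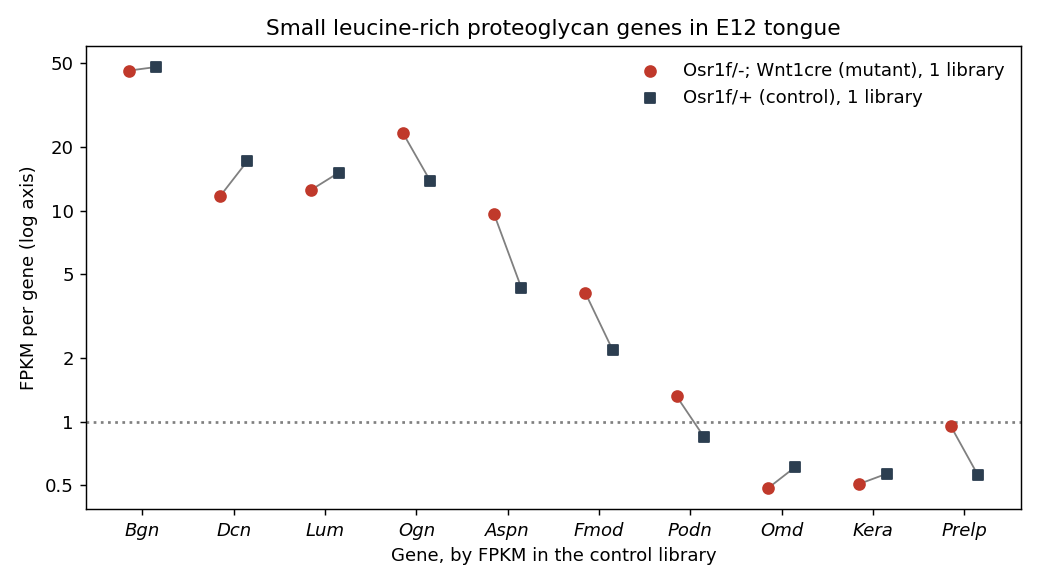
FPKM of each of the 10 genes (log axis) in the mutant library (red circles) and the control library (dark squares), 1 library each, ordered by the control value; the dotted line is the filter of 1 FPKM. Ogn stands at 23.4 FPKM in the mutant and 13.9 FPKM in the control library, while Dcn stands at 11.7 and 17.2 FPKM.

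Aspn, which encodes asporin, a class I SLRP that binds collagen and TGF-beta, had the highest ratio of the 10 genes. It had 9.65 FPKM in the mutant library and 4.30 FPKM in the control library, from about 527 and 191 reads. This gave a ratio of 2.25 and a counting interval, at 95%, of 1.91 to 2.67. Its 2 transcript rows share the locus on mm9 chromosome 13, 49639812 to 49662931, and 99.9995% of the FPKM in the mutant and 99.9982% in the control library was put on NM_025711.

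Ogn encodes osteoglycin, also called mimecan, a class III SLRP of bone, tendon and other connective tissue. It had 23.4 FPKM in the mutant library and 13.9 FPKM in the control library, about 1382 and 668 reads. The ratio was 1.69 (1.54 to 1.86), and the difference of 9.56 FPKM was the largest of the 10 genes in absolute terms. Aspn and Ogn together with Omd lie within 80.1 kb on chromosome 13.

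Omd encodes osteomodulin, a keratan sulfate SLRP of mineralized tissue, and lies between Aspn and Ogn (49678116 to 49687978). It had 0.484 FPKM in the mutant library and 0.610 FPKM in the control library, about 20 reads in each. Its ratio of 0.792 had an interval of 0.417 to 1.60, which includes 1. That interval lies below that of Aspn but overlaps that of Ogn (1.54 to 1.86). Ecm2, an extracellular matrix gene with leucine-rich repeats on the near side of Aspn, had 0.675 FPKM in the mutant and 0.668 FPKM in the control library, a ratio of 1.01 (0.661 to 1.501). The nearest measured genes outside the group were Ippk and Nol8, with ratios of 1.04 (0.884 to 1.22) and 0.973 (0.863 to 1.10). High ratios on this stretch were thus those of Aspn and Ogn among the 7 genes given, including the overlapping Cenpp.

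The loci of Aspn, Omd and Ogn all lie inside that of Cenpp, a centromere protein gene on the opposite strand (49559428 to 49748100). Cenpp had 5.18 FPKM in the mutant library and 5.71 FPKM in the control library, a ratio of 0.908 (0.701 to 1.18). In the GENCODE M21 annotation of GRCm38, 7 of the 2354 exon bases of Aspn were shared with Cenpp, and no exon base of Ogn or Omd was shared with another gene. The other 7 members overlapped no other gene model in the deposited tables. Prelp shared 9.68% of its exon bases with Gm15851, a model on the opposite strand, in the same GENCODE annotation. Whether the authors' estimation used strand is not given in the sources used here, so reads of those bases cannot be told apart. Exon overlap leaves out reads of unspliced Cenpp RNA, and their part in the values of Aspn, Omd and Ogn was not tested.

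Fmod encodes fibromodulin, a class II SLRP abundant in tendon and cartilage that binds type I collagen. It had 4.07 FPKM in the mutant library and 2.18 FPKM in the control library, about 270 and 118 reads, a ratio of 1.87 (1.499 to 2.34). Prelp, whose protein binds both collagen and heparan sulfate, lies in the same group of 138 kb on chromosome 1. It had 0.955 FPKM in the mutant library and 0.556 FPKM in the control library, about 80 and 38 reads, a ratio of 1.72 (1.15 to 2.60). Both genes of this group were therefore higher in the mutant library by more than their counting error. The third SLRP gene there, Optc, which encodes opticin, had 0.126 FPKM in the mutant and 0.282 FPKM in the control library, about 5 and 7 reads, and its interval of 0.146 to 2.13 includes 1. The nearest measured genes, Atp2b4 and Btg2, had ratios of 0.968 (0.906 to 1.04) and 0.944 (0.833 to 1.07).

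Podn encodes podocan, a class V SLRP, and stands alone on chromosome 4 (107687398 to 107704695). It had 1.32 FPKM in the mutant library and 0.845 FPKM in the control library, about 97 and 51 reads. The ratio of 1.56 had an interval of 1.10 to 2.22. With quantile normalization of log2(FPKM + 1) the ratio was 1.24, under the limit of 25%. That setting keeps the added 1 FPKM in the ratio, and a pseudocount of 1 alone gave 1.26. Its neighbours Cpt2 and Scp2 had ratios of 0.923 (0.794 to 1.08) and 0.945 (0.864 to 1.03).

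Dcn encodes decorin, a class I SLRP of connective tissue that limits the lateral growth of collagen fibrils. It had 11.7 FPKM in the mutant library and 17.2 FPKM in the control library, about 513 and 616 reads, a ratio of 0.680 (0.604 to 0.766). Of its FPKM, 99.9975% in the mutant and 99.9999% in the control library was put on NM_001190451. Lum, which encodes lumican, had 12.6 FPKM in the mutant library and 15.2 FPKM in the control library, a ratio of 0.830 (0.740 to 0.931). Kera, whose product keratocan is best known from the cornea, had 0.507 FPKM in the mutant and 0.566 FPKM in the control library, a ratio of 0.895 (0.473 to 1.70). These 3 genes lie within 134 kb on chromosome 10 (96942134 to 97076322), and all 3 ratios were below 1, that of Kera by less than its counting error. Epyc, the fourth SLRP gene of this stretch, had 0.355 FPKM in the mutant and 0.526 FPKM in the control library, with an interval of 0.307 to 1.45. The nearest measured genes, Btg1 and Atp2b1, lay 857 and 1301 kb away and had ratios of 1.03 (0.979 to 1.08) and 1.12 (1.06 to 1.19).

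**Figure D2:**
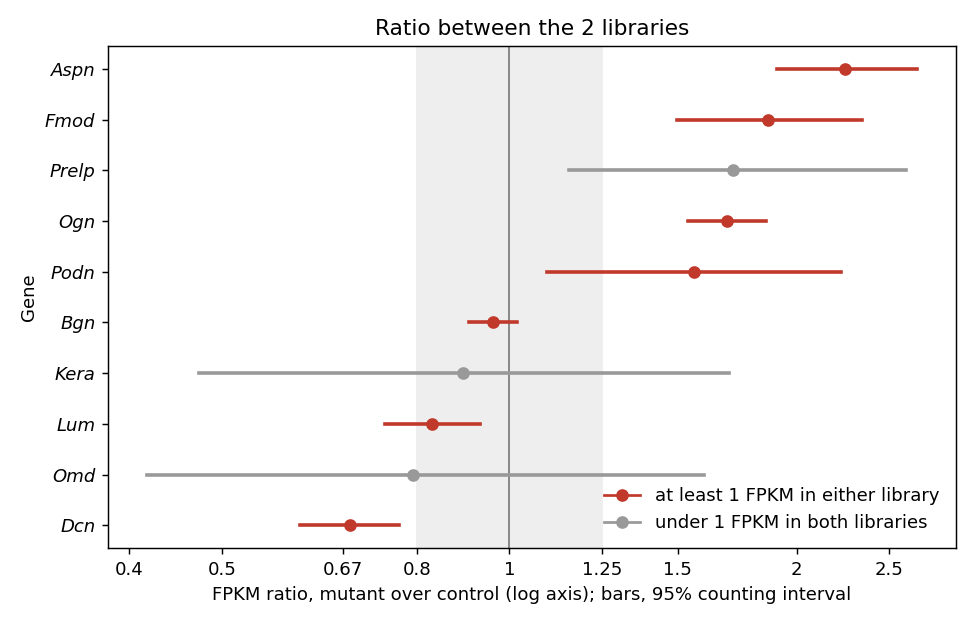
FPKM ratio of mutant over control (log axis) for each gene, with the 95% counting interval as a bar; the grey band spans ratios from 20% lower to 25% higher, red genes reached 1 FPKM in either library and grey genes did not. The intervals of 5 genes lie above 1 and those of Dcn and Lum below it, while those of Bgn, Kera and Omd include 1. Of all 12383 measured genes, which leave out Prelp, Kera and Omd, 21.0% had an interval that excludes 1.

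**Figure D3:**
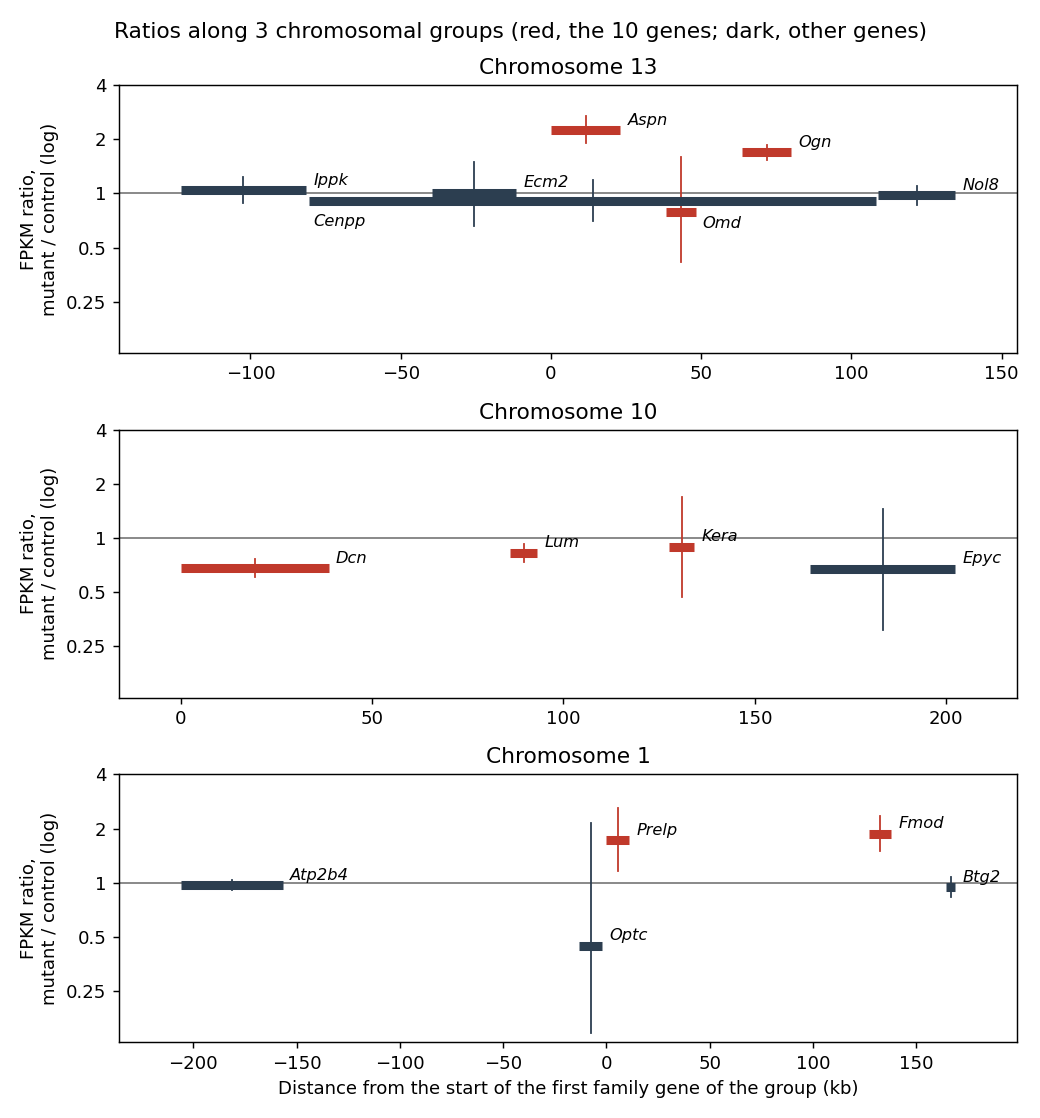
FPKM ratio (log axis) of the SLRP genes and other genes named in the text in 3 chromosomal groups against the distance in kb from the start of the first of the 10 genes; a thick bar spans the locus and a thin line the 95% counting interval. On chromosome 13 Aspn and Ogn lie above 1 and Omd, between them, does not; on chromosome 10 Dcn, Lum and Kera lie below 1; on chromosome 1 Prelp and Fmod lie above 1.

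Bgn encodes biglycan, which binds collagen, BMPs and TGF-beta and is found in bone, cartilage and tendon. It had 46.1 FPKM in the mutant library and 48.0 FPKM in the control library, about 2560 and 2175 reads. The ratio of 0.961 (0.907 to 1.02) includes 1 within counting error. Bgn lies on the X chromosome (70728974 to 70741275), and its neighbours Haus7 and Dusp9 had ratios of 0.864 (0.775 to 1.02) and 0.868 (0.770 to 0.977). Xist, which coats the inactive X, had 86.1 FPKM in the mutant library and 61.1 FPKM in the control library. The part of the sex of the pooled embryos in the Bgn values was not tested.

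The make-up of the SLRP transcript pool differed between the libraries. Without Bgn, the other 9 genes summed to 64.7 FPKM in the mutant and 55.3 FPKM in the control library, a ratio of 1.17. Bgn held 41.6% of the summed FPKM of the 10 genes in the mutant library and 46.5% in the control library. Ogn held 21.1% in the mutant and 13.4% in the control library, and Aspn 8.70% and 4.16%. Dcn and Lum together held 21.9% in the mutant and 31.3% in the control library. The 5 genes Ogn, Aspn, Fmod, Podn and Prelp held 35.6% in the mutant and 21.1% in the control library. These 5 genes, and Dcn and Lum, were grouped by the direction of their ratios, so the direction of their shares follows from the grouping. Aspn and Dcn had the highest and the lowest ratio of the 10 genes. For each FPKM of Dcn there were 0.823 FPKM of Aspn in the mutant library and 0.249 FPKM in the control library. Ogn had 2.00 FPKM per FPKM of Dcn in the mutant library and 0.805 in the control library. Within the structural classes the ratios were mixed. Class I summed to 67.5 FPKM in the mutant and 69.5 FPKM in the control library, with Aspn higher, Dcn lower and Bgn within counting error. Class II (Lum, Fmod, Prelp, Kera and Omd) summed to 18.6 FPKM in the mutant and 19.1 FPKM in the control library, with Fmod and Prelp higher and Lum lower.

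The other leucine-rich proteoglycan genes were mostly too low to compare. Of 9 genes, 2 were measured, Tsku and Chadl. Tsku, which encodes tsukushi, a secreted modulator of BMP and WNT signals, had 11.9 FPKM in the mutant library and 11.8 FPKM in the control library. Chadl, which encodes a chondroadherin-like protein of cartilage, had 2.59 FPKM in the mutant and 1.83 FPKM in the control library, a ratio of 1.41 (1.07 to 1.84). Chad, which encodes chondroadherin, had 0.982 FPKM in the mutant and 0.725 FPKM in the control library, with an interval of 0.783 to 2.37. Nyx had 0.138 FPKM in the mutant and 0.0515 FPKM in the control library, about 12 and 4 reads. Podnl1 rested on about 4 reads and Nepn on about 1 read in the mutant library, and both were listed at 0 in the control library.

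Genes of the enzymes that build SLRP chains were listed too. Of 22 genes of chondroitin and dermatan sulfate synthesis 18 were measured, with a median log2 ratio of 0.04. At least 25% higher were 0 and at least 20% lower was 1, beside 5.71% and 4.13% of all measured genes. The lower gene was Chst11, a chondroitin 4-O-sulfotransferase, with 5.80 FPKM in the mutant and 7.25 FPKM in the control library, a ratio of 0.80 (0.722 to 0.887). Chst14, the dermatan 4-O-sulfotransferase, had a ratio of 0.860 (0.776 to 0.952). Csgalnact2, an enzyme that starts chondroitin chains, had a ratio of 1.19 (1.03 to 1.39), and B4galt7, an enzyme of the linker to the core protein, had 1.16 (0.975 to 1.38). Of 8 genes of keratan sulfate synthesis 6 were measured. At least 25% higher was 1 and at least 20% lower were 0, beside the same shares of all measured genes. The higher gene was Fut8, which adds the core fucose of N-glycans, with 12.3 FPKM in the mutant and 8.95 FPKM in the control library, a ratio of 1.38 (1.24 to 1.54). Chst2 and B4galt1 had ratios of 1.05 (0.955 to 1.16) and 0.968 (0.904 to 1.04).

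The list of fibril, fibril-associated and type VI collagens, which leaves out those of cartilage, had 9 measured genes. None of them was 25% higher or 20% lower, beside 5.71% and 4.13% of all measured genes. The 10th listed gene, Col6a3, is not analysed here. Col1a2 had a ratio of 1.13 (1.11 to 1.15) and Col1a1, the other chain of type I collagen, 0.901 (0.883 to 0.918). Col12a1, a fibril-associated collagen of tendon, had a ratio of 1.17 (1.11 to 1.24), and Col3a1 had 0.924 (0.907 to 0.940). The 3 cartilage fibril collagens listed among the cartilage markers were each at least 25% higher. Col2a1 had 131 FPKM in the mutant and 98.4 FPKM in the control library, a ratio of 1.33 (1.29 to 1.36), and Col9a1 and Col11a1 had ratios of 1.54 (1.46 to 1.62) and 1.30 (1.24 to 1.36). Among 15 measured proteases and signalling partners, 4 were at least 25% higher and 1 at least 20% lower, with a median log2 ratio of 0.14, beside 5.71% and 4.13% of all measured genes. Of these 4, Tlr2 passed the filter only through the mutant library, so it could only count as higher, and its interval of 0.851 to 1.89 includes 1. Tgfb3, a ligand that several SLRPs bind, had 25.1 FPKM in the mutant and 19.5 FPKM in the control library, a ratio of 1.28 (1.20 to 1.38). Bmp1, the protease that removes the biglycan propeptide, had a ratio of 1.21 (1.17 to 1.26), and Egfr, a receptor that decorin binds, 1.28 (1.15 to 1.46). Lox, the collagen cross-linking enzyme, was the lower gene, with a ratio of 0.795 (0.724 to 0.873). Of 7 measured large and other proteoglycans 2 were at least 25% higher and 0 at least 20% lower, beside 5.71% and 4.13% of all measured genes. Those named by level, Hspg2 and Agrn, which encode perlecan and agrin, had ratios of 0.905 (0.871 to 0.941) and 0.980 (0.948 to 1.01). The 2 higher genes were named after their values were seen. Spock1, a testican, had 2.73 FPKM in the mutant and 0.794 FPKM in the control library, and Acan, which encodes aggrecan, had 1.22 FPKM in the mutant and 0.811 FPKM in the control library. Both passed the filter only through the mutant library, so they could only count as higher. They lie at 1 to 5 FPKM, where 14.6% of measured genes were at least 25% higher.

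**Figure D4:**
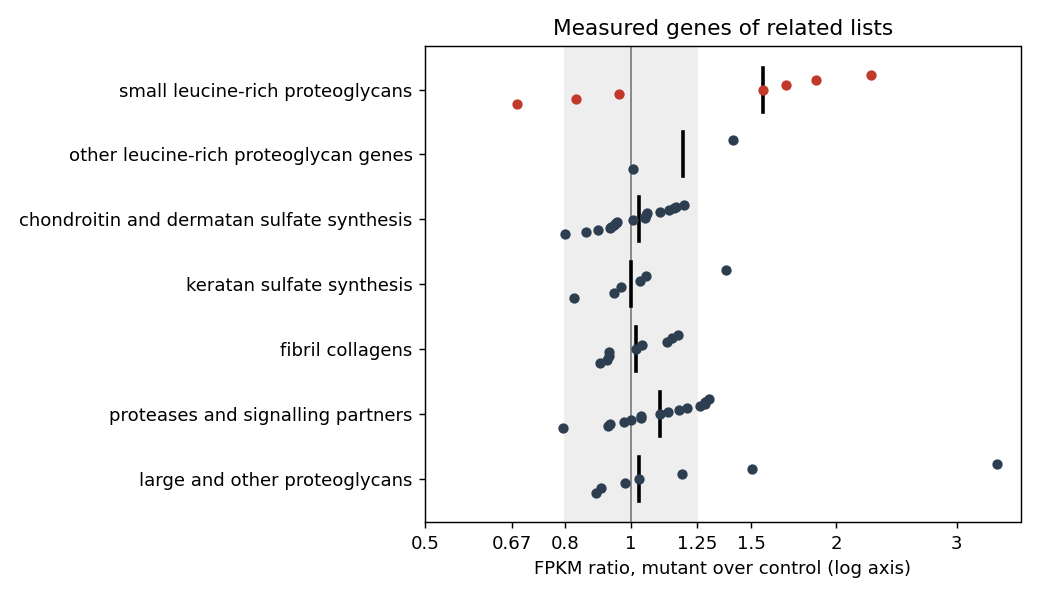
FPKM ratio of mutant over control (log axis) of every measured gene in the SLRP family (red) and in 6 related lists (dark), with the median of each list as a black line and the ratios from 20% lower to 25% higher as a grey band. Of the 7 SLRP genes, 5 lie outside the band, 4 above it and 1 below; the collagen list leaves out the cartilage collagens Col2a1, Col9a1 and Col11a1, whose ratios of 1.33, 1.54 and 1.30 lie above the band.

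Markers of several tissues differed between the libraries too. Their counts stand beside 5.71% of all measured genes at least 25% higher and 4.13% at least 20% lower. In bulk RNA, fewer cells of a type and less RNA per cell cannot be told apart. All 9 cartilage markers had ratios above 1, 8 of them by at least 25%, and their summed level was 251 FPKM in the mutant library and 178 FPKM in the control library. Acan passed the filter only through the mutant library, so it could only count as higher. Sox5, Sox6, Hapln1 and Acan lie at 1 to 5 FPKM, where 14.6% of measured genes were at least 25% higher. Of 5 measured tendon markers 3 were at least 25% higher and 1 at least 20% lower. Scx, the factor of tendon progenitors, had 33.7 FPKM in the mutant and 23.8 FPKM in the control library, and Thbs4, a thrombospondin of tendon, had 19.2 FPKM in the mutant and 41.5 FPKM in the control library. The 6 cranial mesenchyme markers summed to 209 FPKM in the mutant and 196 FPKM in the control library, with 2 of 6 at least 25% higher. These were Msx2, with 1.97 FPKM in the mutant and 0.860 FPKM in the control library, and Osr2, with 17.3 and 13.6 FPKM, while Prrx1 and Twist1 had ratios of 0.984 and 1.04. Msx2 passed the filter only through the mutant library. Myogenic markers summed to 172 FPKM in the mutant and 173 FPKM in the control library, with 5 of 6 ratios below 1. The lowest was that of Pax3, a factor of muscle precursors, with 1.84 FPKM in the mutant and 2.91 FPKM in the control library, a ratio of 0.631 (0.504 to 0.771). Contractile genes summed to 559 FPKM in the mutant and 532 FPKM in the control library. Epithelial markers summed to 103 FPKM in the mutant and 118 FPKM in the control library, with 6 of 7 ratios below 1. Neuronal markers summed to 19.5 FPKM in the mutant and 29.3 FPKM in the control library, Schwann lineage markers to 23.1 and 27.0 FPKM, and erythroid markers to 1068 and 1310 FPKM. Endothelial markers summed to 56.2 FPKM in the mutant and 54.1 FPKM in the control library, and macrophage markers to 9.77 and 9.65 FPKM. Bone markers summed to 10.04 FPKM in the mutant and 8.99 FPKM in the control library, and the measured ones were split. Runx2, the factor of osteoblast fate, had 3.83 FPKM in the mutant and 1.79 FPKM in the control library, a ratio of 2.13 (1.87 to 2.58), while Sp7 and Alpl had ratios of 0.956 (0.763 to 1.21) and 0.803 (0.591 to 1.08). No marker with a row was listed at 0 in either library, and the part of any of these tissues in the SLRP values was not tested. Defining markers of muscle (Myog, 84.9 and 80.8 FPKM), mesenchyme (Pdgfra, 80.3 and 75.3 FPKM) and epithelium (Krt15, 30.1 and 35.3 FPKM) were present in the mutant and the control library, as for the labelled tissue.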

How the data were processed

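The authors deposited 1 table per library of FPKM values per RefSeq transcript, laid out as a Cufflinks isoform table, per the file headers. Total RNA (Qiagen RNeasy micro) was turned into cDNA with the NuGEN Ovation RNA-Seq v2 assay, per the labels. Bowtie 0.12.7, TopHat 1.4.1 and mm9 are named in the submitters' processing notes. No source used here gives the Cufflinks version, the read length or the strand setting. A second deposited column is a coverage signal per transcript, and FPKM times a constant of the library gives it (1.09 in the mutant, 0.894 in the control), so it is no independent check.

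By the names of the deposited files the libraries ran in different lanes, so lane and genotype cannot be told apart. The 28107 rows were summed to 22072 symbols. The ratio is mutant FPKM over control FPKM with no pseudocount. Coverage times length peaked at a lowest value of 47.1 bases in genes with 1 row of 1000 nt or more. This was taken as 1 read and gave approximate reads and depth. Ratio intervals are exact conditional (Clopper-Pearson, 95%) and level intervals exact Poisson. Both cover counting error alone and no variation between embryos, and reads amplified from 1 molecule are not independent. Amplification and the sharing of reads among overlapping transcripts can shift values. Coordinates are on mm9, counted from 1, unless GRCm38 is named.

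The members and gene lists were chosen with earlier results of these data known. All members, all other leucine-rich proteoglycan genes and up to 4 genes of each other list by log2 ratio at 5 FPKM or more were named, with Osr1, the neighbours of each chromosomal group and Cenpp. Of the marker lists, genes are named in part, and Msx2, Pax3, Col11a1, Runx2, Sp7, Alpl and Tlr2 were named after their values were seen. Python 3.11.15, pandas 2.3.3 and scipy 1.17.1 were used.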

Additional observations from a re-analysis of the deposited data

How the results depend on the processing

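No paired analysis was possible because each genotype had 1 library, and for the same reason no library could be left out. All 70 alternative values of the member ratios lay within the counting interval of the ratio as reported. The settings were TPM scale, median of all genes set to 0, quantile normalization, pseudocounts of 1 and 0.1, scaled coverage and most abundant row only. Most of these could hardly differ. Scaled coverage follows FPKM by a constant of the library, and 8 members have a single row. TPM scale and the median setting move all ratios by a common factor. The ratio of Aspn ran from 1.98 to 2.25 and that of Ogn from 1.64 to 1.69. That of Fmod ran from 1.56 to 1.87 and that of Dcn from 0.678 to 0.698. The lowest values of Aspn and Fmod came with quantile normalization, which keeps the added 1 FPKM in the ratio. With a pseudocount of 1 alone the ratios of Aspn and Fmod were 2.01 and 1.59. The counts depended on which genes entered. With at least 5 FPKM the higher genes numbered 2 (Aspn and Ogn), and without overlapping gene models they numbered 2 as well (Fmod and Podn), against 4 as reported. The median log2 ratio turned to −0.057 under each of these 2 settings, where 5 members remain. The lower genes numbered 2 (Dcn and Omd) with no filter and 0 at 1.5-fold, against 1 as reported. Depth limits Omd and Kera, whose intervals reach from under 0.5 to over 1.5. Podn and Prelp were less than 25% higher with quantile normalization (1.24 each), in which the added 1 FPKM shrinks ratios of low values. A pseudocount of 1 alone gave 1.26 for each.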
